A study of Homo sapiens with 6 samples.

Results

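The SLC25 genes encode the mitochondrial carriers, and this account covers all 48 protein-coding genes of the expression table, out of 58051 gene entries, whose symbol is SLC25A followed by a number. Membership was set by names only and by no measured value, but the family and its lists were chosen with earlier results of these data known. The ADP/ATP carrier genes SLC25A4, SLC25A5 and SLC25A6 were described beside the other 45 genes. Of the 48 genes, 39 were tested, 34 lay above 1 FPKM in all libraries, and 9 stayed below 0.5 FPKM in every library and were not tested. FPKM is the level of a gene per length of its exons and per library depth, as the authors computed it.

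The libraries were 6 RNA-seq libraries from cells labelled NTera-2 (NT2), a human line grown from a testicular embryonal carcinoma. According to their titles, 3 came from cells given piR-36249 mimics (the mimic group) and 3 from cells given a piR-36249 scramble as control (the scramble group); piRNAs are short RNAs best known for silencing transposons in the germ line. The genotype field of the mimic samples names a knockdown of the same piRNA while their treatment field names mimics, so the samples were grouped by title and every difference below is mimic minus scramble. Nothing in the labels states that each library was a culture of its own, so the p-values reflect the spread among these libraries and that spread may be technical.

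Carriers of this family sit mostly in the inner mitochondrial membrane, where they move small molecules between the cytosol and the matrix. The ADP/ATP carriers bring ADP in and let newly made ATP out, and SLC25A5 is known as the form abundant in dividing cells, SLC25A4 as the form of heart and muscle, SLC25A6 as a widely expressed form and SLC25A31 as the form of germ cells. The carriers are made in the cytosol and reach the inner membrane through the TOM complex, the small TIM chaperones and the TIM22 complex.

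The windows before the start sites of SLC25A5 and SLC25A6 are shown because these near-identical carriers are the most abundant of the family and differed in their change, and that of SLC25A40 because it fell as far as SLC25A5 in fold terms. Each is the 250 bases before the start site in RefSeq on GRCh38.p14, read 5′ to 3′ on the gene's own strand, with motif matches in capitals. Where a gene had several start sites, the first listed was used. The bases just after the start were found in a GENCODE transcript of the gene for SLC25A5 and SLC25A6, but not for SLC25A40. The windows are chrX:119468194-119468443 on the plus strand for SLC25A5, chrX:1392114-1392363 on the minus strand for SLC25A6 and chr7:87876361-87876610 on the minus strand for SLC25A40. The gene spans given below are from GENCODE and begin further upstream for SLC25A5 and SLC25A6. The SLC25A6 window thus lies wholly inside its gene span, which reaches 1392724. The SLC25A5 window runs past 119468400, where its span begins.
SLC25A5: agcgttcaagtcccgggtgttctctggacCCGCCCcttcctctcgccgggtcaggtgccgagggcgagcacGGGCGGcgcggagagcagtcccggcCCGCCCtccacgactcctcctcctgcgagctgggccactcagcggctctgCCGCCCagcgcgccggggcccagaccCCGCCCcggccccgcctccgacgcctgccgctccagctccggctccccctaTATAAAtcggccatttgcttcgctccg
SLC25A6: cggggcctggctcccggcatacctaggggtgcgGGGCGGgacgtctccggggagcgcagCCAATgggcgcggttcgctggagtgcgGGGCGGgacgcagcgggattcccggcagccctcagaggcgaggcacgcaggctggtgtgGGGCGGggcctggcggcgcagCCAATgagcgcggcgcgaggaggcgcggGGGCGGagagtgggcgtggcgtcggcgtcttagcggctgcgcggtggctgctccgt
SLC25A40: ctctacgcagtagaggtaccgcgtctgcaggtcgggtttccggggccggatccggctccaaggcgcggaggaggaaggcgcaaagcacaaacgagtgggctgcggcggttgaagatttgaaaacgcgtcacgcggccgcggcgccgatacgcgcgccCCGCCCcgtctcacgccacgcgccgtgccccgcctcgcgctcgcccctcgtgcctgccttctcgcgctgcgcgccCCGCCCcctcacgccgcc
The motifs searched on both strands were the GC box (GGGCGG), the CCAAT box (CCAAT), the TATA box (TATAAA), an ETS core (CCGGAAG) and an NRF1 core (CGCANGCG), and no 2 different motifs overlapped in these windows. The SLC25A5 window held 5 GC boxes and a TATA box from 27 to 22 bases before the start. The SLC25A6 window held 4 GC boxes and 2 CCAAT boxes, and the SLC25A40 window 2 GC boxes. G and C made up 73.6%, 76.8% and 72.8% of the 3 windows. Across 34961 RefSeq windows of this length, 42.7% held a GC box, 32.0% a CCAAT box, 10.7% a TATA box, 8.52% the ETS core and 8.72% the NRF1 core. For the 50 windows of the 40 family members found in that table, the shares were 66%, 42%, 8%, 22% and 12%. A match describes letters only and is not a measured binding site.

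SLC25A5 was the most abundant carrier gene and, on the log2(FPKM + 1) scale, fell furthest in the family; as a ratio of FPKM, SLC25A40 fell slightly further. It lies on chromosome X from 119468400 to 119471319, plus strand, GRCh38 (ENSG00000005022). Its FPKM was 125.2, 116.3 and 126.5 in mimic libraries 1 to 3, and 316.8, 306.6 and 330.9 in scramble libraries 1 to 3. Every mimic library lay far below every scramble library. The means were 122.6 ± 5.57 with mimic and 318.1 ± 12.2 with scramble (SD, n = 3 each), a level 2.59 times lower with mimic. The log2 fold change was -1.37 (SE 0.049, adjusted p = 1.04e-05), where the fold change is on the log2(FPKM + 1) scale and the adjusted p is from limma over all 12912 genes tested. Genes with an adjusted p under 0.05 are called, and only these are said to have risen or fallen. Leaving out any 1 library kept the log2 fold change between -1.39 and -1.33. In the authors' deposited table the log2 fold change of SLC25A5 was -1.38 (adjusted p = 1.4e-123). In an exact two-sided permutation test SLC25A5 had p = 0.1, and no smaller p can be reached with 3 libraries a group.

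SLC25A6, whose product shares 91.9% of residues with that of SLC25A5 over 298 aligned positions, was only slightly lower with mimic. Its FPKM was 89.8, 82.0 and 87.7 in mimic libraries 1 to 3 and 94.6, 93.1 and 103.9 in scramble libraries 1 to 3, and the groups did not overlap. The means were 86.5 ± 4.03 and 97.2 ± 5.87 FPKM (SD, n = 3 each). Its log2 fold change of -0.17 (SE 0.055, adjusted p = 0.0497) just passed the threshold of 0.05. Leaving out any of the 6 libraries ended that call, with adjusted p up to 0.137. The gene lies in the pseudoautosomal region of the sex chromosomes, at 1386152 to 1392724 on chromosome X, minus strand (ENSG00000169100). How reads matching its copies on X and Y were counted is not known, so its level relative to SLC25A5 is uncertain.

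Whether the paralogs differed in their change was tested within libraries, with SLC25A5 singled out when earlier results of these data were known. The difference of log2(FPKM + 1) between SLC25A5 and SLC25A6 was 0.50 ± 0.024 with mimic and 1.70 ± 0.037 with scramble (SD, n = 3 each). The groups thus differed by -1.20 on the log2 scale, with exact two-sided permutation p = 0.1, the smallest possible here. The SLC25A5 level was 1.42 ± 0.024 times the SLC25A6 level with mimic and 3.28 ± 0.085 times with scramble. SLC25A5 took 58.2%, 58.6% and 59.0% of the summed FPKM of SLC25A4, SLC25A5 and SLC25A6 in mimic libraries 1 to 3, and 77.0%, 76.6% and 76.1% in scramble libraries 1 to 3. SLC25A6 made up nearly all of the remainder, with a mean share of 41.3% with mimic and 23.4% with scramble.

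SLC25A4 and SLC25A31, the muscle and germ-cell forms, were close to or at 0. SLC25A4 (ENSG00000151729) lay at 0.169, 0.195 and 0.194 FPKM with mimic and 0.148, 0.356 and 0.216 FPKM with scramble, with overlapping groups and exact permutation p = 0.6. SLC25A31 was listed at 0 in all 6 libraries. Reads of such similar genes could in principle be exchanged, so shared sequence was measured on the GENCODE 29 transcripts. The coding bases of SLC25A5 and SLC25A6 were 78.7% identical, and the longest run of bases that the transcripts of both shared was 29. The 9 SLC25A5 pseudogenes in the table shared runs of 26 to 68 bases with it, and none exceeded 0.278 FPKM in any library. The antisense gene SLC25A5-AS1, which overlaps 699 bases of SLC25A5 on the other strand, did not exceed 0.432 FPKM. No source used here states whether counting used strand.

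**Figure D1:**
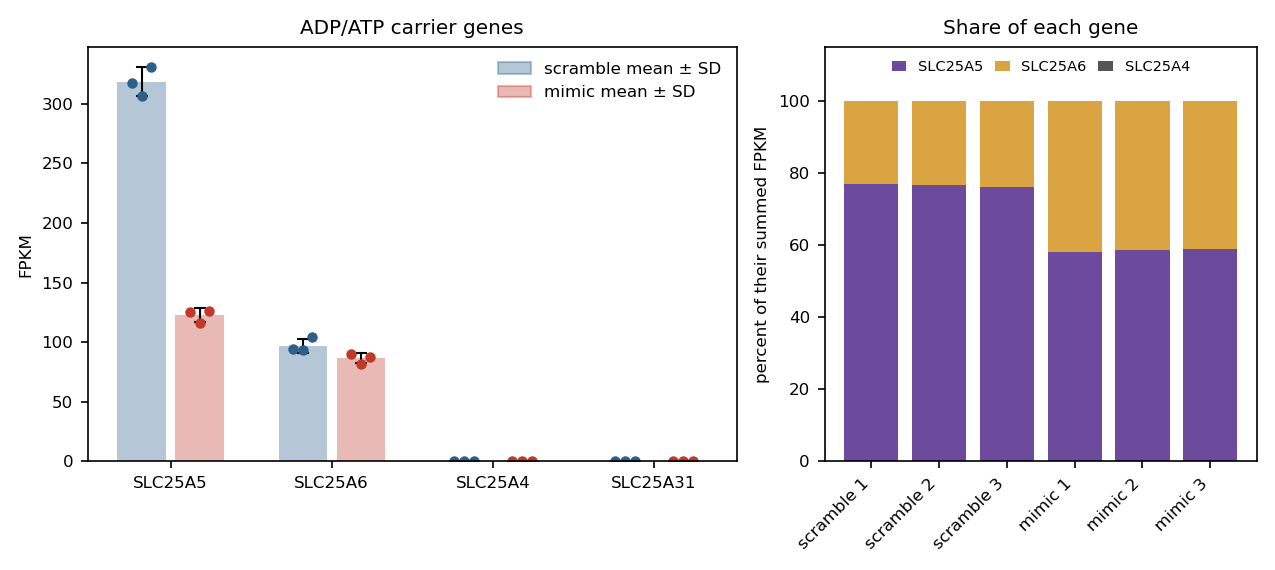
ADP/ATP carrier genes in the 6 libraries. Left, FPKM per library (points) with group mean (bar) and SD (error bar), blue for scramble and red for mimic; right, the percent of the summed FPKM of SLC25A4, SLC25A5 and SLC25A6 that each gene took in each library. SLC25A5 fell from a mean of 318.1 to 122.6 FPKM, its share from 76.6% to 58.6%, and SLC25A4 is too low to see.

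Most of the difference between the groups in the family's summed level lay in SLC25A5. The 48 genes summed to 818.9 ± 23.1 FPKM with scramble and 604.6 ± 17.6 with mimic (SD, n = 3 each). Without SLC25A5 the sums were 500.8 ± 11.0 and 481.95 ± 12.2 FPKM. SLC25A5 alone held 38.8% ± 0.396 of the family's summed FPKM with scramble and 20.3% ± 0.356 with mimic. These sums are descriptions and were not tested. In bulk RNA, fewer cells of a type and less RNA per cell cannot be told apart.

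Of the 39 tested genes 8 rose, 8 fell and 23 did not reach the threshold. The count of rises was 5 without mimic library 1, 2 or 3 or scramble library 2, beside 6, 8, 6 and 6 falls in that order. The 16 called genes were 41.0% of those tested, while 35.5% of all tested genes were called. By direction, 20.5% of the family rose and 20.5% fell, against 18.7% and 16.8% of all tested genes. The family's shares were thus near the background of a comparison in which many genes changed. Its median log2 fold change was 0.010, and 0.003 over all tested genes. The groups did not overlap in 23 of the 39 genes (59.0%), and in 49.2% of all tested genes.

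The sizes were less even than the counts. All 8 rises were small, from 0.13 to 0.40 on the log2 scale, while SLC25A5, SLC25A40, SLC25A24 and SLC25A15 each fell by more than 0.5. These 4 genes were 10.3% of the tested family, and 2.57% of all tested genes fell by 0.5 or more. SLC25A5 and SLC25A40 fell by more than 1, which is 5.13% of the family against 0.271% of all tested genes. Without mimic library 3 or scramble library 2, the log2 fold change of SLC25A40 was -0.97. Adding 1 FPKM shrinks the changes of low genes, so these shares depend on the levels of the genes counted. Of the 12912 tested genes, 11150 averaged at least 1 FPKM, while 34 members lay above 1 FPKM in all libraries. The 4 genes that fell by more than 0.5 are a small number, and no test was made of the family as a set. Without the ADP/ATP carriers, 14 of 37 tested genes were called, 8 higher and 6 lower, with a median of 0.016.

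**Figure D2:**
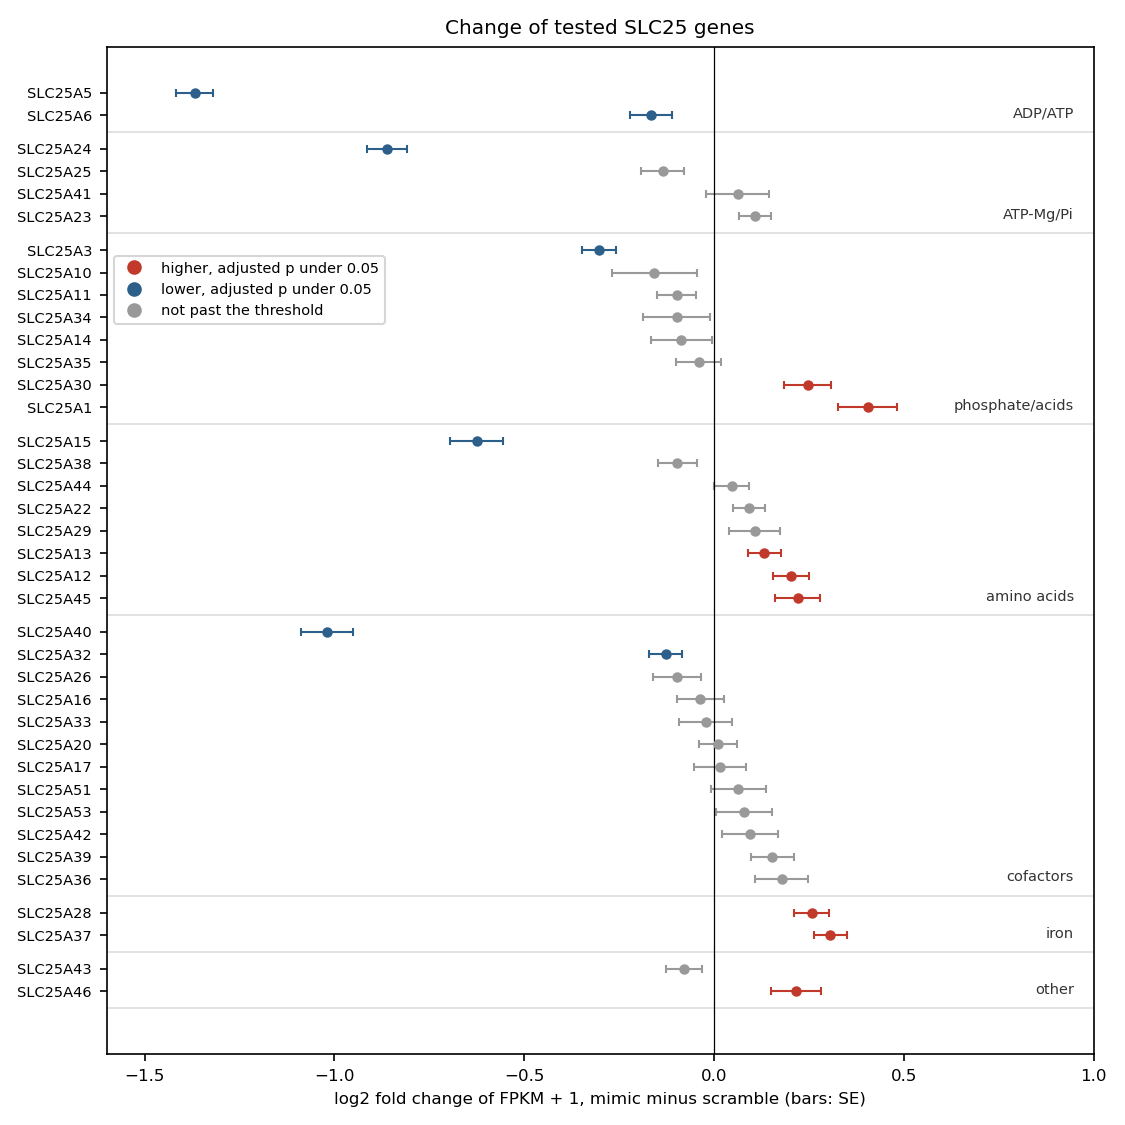
log2 fold change (mimic minus scramble, on the log2(FPKM + 1) scale) of tested SLC25 genes by transport group, with bars for the standard error, red and blue for genes called higher and lower and grey for the others. Rises among called genes reach 0.40 (SLC25A1), and falls reach -1.37 (SLC25A5).

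**Figure D3:**
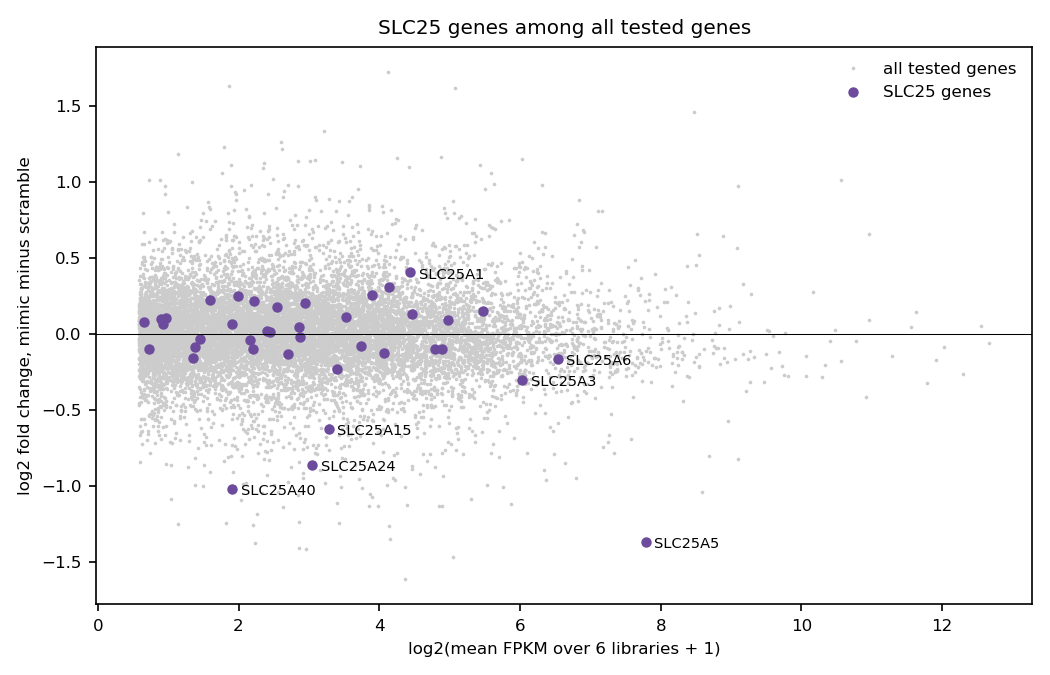
The tested SLC25 genes among all 12912 tested genes, by log2(mean FPKM + 1) over the 6 libraries and log2 fold change, mimic minus scramble. Most SLC25 genes lie within the cloud of all genes, and SLC25A5 and SLC25A40 lie at its lower edge.

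Among the ATP-Mg/phosphate carriers, which move adenine nucleotides in exchange for phosphate and are mostly set by calcium, 1 of 4 tested genes changed. That is 25%, against 35.5% of all tested genes called. SLC25A24 (chromosome 1, 108134036 to 108200849, minus strand) was at 4.94, 4.87 and 4.79 FPKM in mimic libraries 1 to 3 and 9.64, 10.3 and 9.09 FPKM in scramble libraries 1 to 3. The mimic libraries were tightly grouped and well below all scramble libraries, and the log2 fold change was -0.86 (SE 0.052, adjusted p = 3.5e-05). Its paralog SLC25A23 did not reach the threshold, with 10.9 ± 0.387 FPKM with mimic and 10.1 ± 0.211 with scramble (log2 difference 0.11, adjusted p = 0.0864). The level of SLC25A24 was 0.959 ± 0.056 times that of SLC25A23 with scramble and 0.445 ± 0.022 times with mimic, a pair chosen after the values were seen. SLC25A25 and SLC25A41, the other carriers of this kind, had log2 differences of -0.14 and 0.06, and among the alternatives SLC25A25 passed the threshold only without mimic library 2.

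Of the glutathione carriers, SLC25A40 fell and SLC25A39 did not reach the threshold. SLC25A40 (chromosome 7, 87833568 to 87876357, minus strand) was at 1.56, 1.58 and 1.32 FPKM in mimic libraries 1 to 3 and 3.91, 4.38 and 3.83 FPKM in scramble libraries 1 to 3. No mimic library reached 1.59 FPKM, and none of scramble fell below 3.82. The level was 2.72 times lower with mimic, slightly more than for SLC25A5. The log2 fold change of -1.02 (SE 0.069, adjusted p = 5.2e-05) understates this, since adding 1 FPKM weighs on low genes, and it was -1.45 in the authors' deposited table for SLC25A40. The gene shares 142 bases with DBF4, a cell-cycle kinase subunit gene on the other strand, whose log2 fold change was -0.25 (adjusted p = 0.0332). That call of DBF4 was lost without mimic library 1 or 3 or scramble library 2 or 3, with adjusted p up to 0.105.

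SLC25A39, the far more abundant of the pair, lay at 47.1, 42.7 and 48.2 FPKM with mimic and 41.4, 39.3 and 43.0 FPKM with scramble. These groups overlapped, since mimic library 2 lay below scramble library 3. Its log2 difference of 0.15 (adjusted p = 0.0669) did not reach the threshold, but it did under 6 alternatives, 1 of them without mimic library 2. The level of SLC25A40 was 0.0984 ± 0.0118 times that of SLC25A39 with scramble and 0.0325 ± 0.0048 times with mimic, again a pair chosen after the values were seen.

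The other carriers of cofactors, nucleotides, carnitine and glutathione moved less. With SLC25A40, 3 of 13 tested genes of this group fell (23.1%, against 16.8% of all tested genes) and 10 did not reach the threshold. SLC25A32, tied to folate and FAD uptake, was at 15.2, 15.6 and 14.3 FPKM with mimic and 16.6, 16.5 and 16.5 with scramble. The groups did not overlap, but the log2 fold change of SLC25A32 was only -0.13 (adjusted p = 0.0489) and its call was lost without any 1 library other than mimic library 2, with adjusted p up to 0.152. The carriers of carnitine (SLC25A20), S-adenosylmethionine (SLC25A26), coenzyme A or its precursors (SLC25A16, SLC25A42, and SLC25A17 of peroxisomes), pyrimidine nucleotides (SLC25A33, SLC25A36) and NAD (SLC25A51), and SLC25A53, did not pass. Their log2 differences lay between -0.10 and 0.18, the highest being that of SLC25A36.

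Of the carriers of phosphate, dicarboxylates, tricarboxylates and oxoacids, counted with the members resembling uncoupling proteins, 2 of 8 tested genes rose, 1 fell and 5 did not reach the threshold. The shares higher and lower were 25% and 12.5%, against 18.7% and 16.8% of all tested genes. SLC25A1, the citrate carrier that supplies cytosolic acetyl units for lipid synthesis, was at 25.4, 20.8 and 25.2 FPKM in mimic libraries 1 to 3 and 17.9, 16.7 and 18.3 in scramble libraries 1 to 3. Mimic library 2 lay nearest to the scramble libraries, yet the groups did not overlap. Its log2 fold change of 0.40 (SE 0.078, adjusted p = 0.0059) was the highest of the family.

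SLC25A3, which imports the phosphate needed for ATP synthesis, was the third most abundant gene of the family. It lay at 57.6, 56.5 and 59.1 FPKM with mimic and 70.6, 68.7 and 75.2 with scramble, with no overlap. The log2 fold change of SLC25A3 was -0.30 (SE 0.044, adjusted p = 0.0016). Its joined exons span 8896 bases in the annotation against 1500 for SLC25A5, and FPKM divides by such a length, so levels of the 2 genes depend on which exons are used. SLC25A30, resembling uncoupling proteins, had means of 3.33 ± 0.223 FPKM with mimic and 2.65 ± 0.159 with scramble (log2 fold change 0.25, adjusted p = 0.017). That call was lost without mimic library 2 or 3, with adjusted p up to 0.0554. The oxoglutarate carrier SLC25A11 had means of 27.7 ± 1.37 and 29.8 ± 1.46 FPKM (log2 difference -0.10, adjusted p = 0.179). SLC25A10 (the dicarboxylate carrier), SLC25A14, SLC25A34 and SLC25A35 did not pass either, with log2 differences from -0.16 to -0.04.

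**Figure D4:**
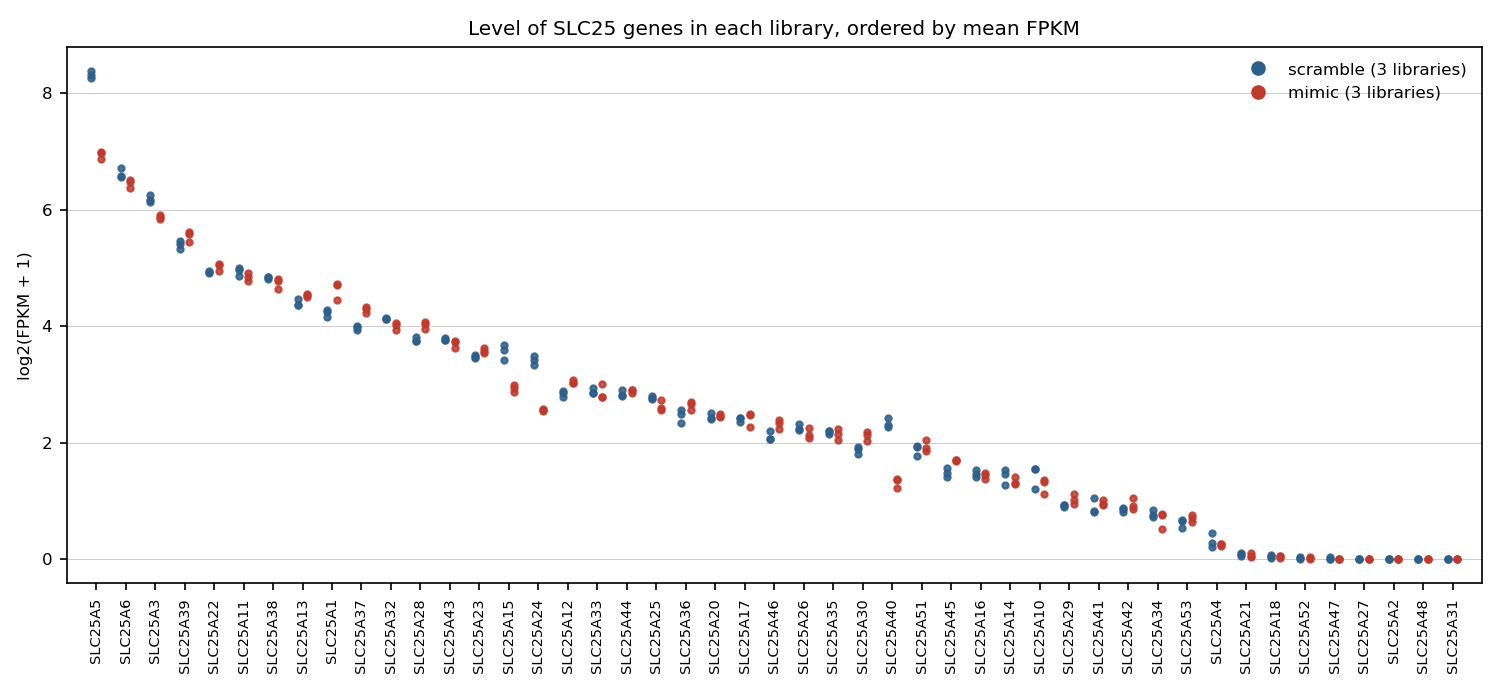
Level of SLC25 genes in each library as log2(FPKM + 1), ordered by mean FPKM, with 1 point per library, blue for scramble and red for mimic. SLC25A5, SLC25A24, SLC25A15 and SLC25A40 show the widest gaps between groups.

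Among the amino acid carriers, 3 of 8 tested genes rose, 1 fell and 4 did not reach the threshold. The shares higher and lower were 37.5% and 12.5%, against 18.7% and 16.8% of all tested genes. SLC25A15, which exchanges ornithine and citrulline for the urea cycle, was the one that fell. It was at 6.33, 6.97 and 6.69 FPKM in mimic libraries 1 to 3 and 11.0, 11.8 and 9.74 in scramble libraries 1 to 3, and the lowest scramble library was well above the highest mimic library. The log2 fold change of SLC25A15 was -0.63 (SE 0.070, adjusted p = 0.00049), for a gene on chromosome 13 from 40789412 to 40810111, plus strand.

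The aspartate/glutamate carriers of the malate-aspartate shuttle, SLC25A12 and SLC25A13, both rose slightly. SLC25A12 was at 7.47, 7.09 and 7.09 FPKM with mimic and 6.19, 6.37 and 5.87 with scramble, a log2 fold change of 0.20 (adjusted p = 0.013). SLC25A13 was at 22.1, 22.5 and 21.7 FPKM with mimic and 21.1, 19.6 and 19.6 with scramble, a log2 fold change of 0.13 (adjusted p = 0.045). Neither gene's groups overlapped. The call of SLC25A13 was lost without any 1 library other than scramble library 1, with adjusted p up to 0.130. SLC25A45 had means of 2.24 ± 0.019 FPKM with mimic and 1.78 ± 0.147 with scramble (log2 fold change 0.22, adjusted p = 0.023). Its call was lost without any 1 library other than scramble library 3, with adjusted p up to 0.0848. The carriers of glutamate (SLC25A22, 31.5 ± 1.37 against 29.5 ± 0.437 FPKM) and glycine (SLC25A38, 25.7 ± 1.65 against 27.5 ± 0.416 FPKM) were among the 10 most abundant members. They did not reach the threshold, and neither did SLC25A29 of basic and SLC25A44 of branched-chain amino acids, with log2 differences of the 4 genes between -0.10 and 0.11.

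Both mitoferrins, which bring iron into the matrix for heme and iron-sulfur clusters, rose, as did 18.7% of all tested genes. SLC25A37 (mitoferrin-1) was at 17.7, 19.0 and 18.5 FPKM in mimic libraries 1 to 3 and 14.8, 15.1 and 14.2 in scramble libraries 1 to 3. SLC25A28 (mitoferrin-2) was at 15.5, 14.5 and 15.8 FPKM with mimic and 13.0, 12.4 and 12.5 with scramble. All mimic libraries exceeded all scramble libraries for both genes. The log2 fold changes were 0.31 (SE 0.043, adjusted p = 0.0014) for SLC25A37 and 0.26 (SE 0.046, adjusted p = 0.0041) for SLC25A28. Both calls held without any 1 library, and the ratio of the pair moved little, from 1.17 ± 0.047 with scramble to 1.21 ± 0.087 with mimic.

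SLC25A46, an outer-membrane member involved in mitochondrial shape, had means of 3.98 ± 0.279 FPKM with mimic and 3.29 ± 0.242 with scramble (log2 fold change 0.22, adjusted p = 0.035). Its call was lost without mimic library 1 or 2 or scramble library 2 or 3, with adjusted p up to 0.107. SLC25A43, for which no substrate is assigned here, had a log2 difference of -0.08 and did not pass. The members below the filter besides SLC25A4 and SLC25A31 were SLC25A2, SLC25A18, SLC25A21, SLC25A27, SLC25A47, SLC25A48 and SLC25A52, and SLC25A2, SLC25A27 and SLC25A48 were listed at 0 in all libraries. All 1417 bases of SLC25A2 lie within the span of TAF7 on the same strand, a gene at up to 11.8 FPKM. How reads of that stretch were counted is not known, so the 0 of SLC25A2 may not mean absence. Close relatives outside the naming rule did not reach the threshold where tested: UCP2, MTCH1 and MTCH2 had log2 differences between -0.06 and 0.09. Within groups, the coefficient of variation over the 34 members above 1 FPKM had a median of 5.02% with mimic and 4.55% with scramble, and SLC25A10 was the most variable, at 14.9% and 21.0%.

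Among the genes that bring carriers into the inner membrane, TOMM20 and TIMM10B fell most. Of 14 tested genes of the import route, 7 fell (50%, against 16.8% of all tested genes), 1 rose and 6 did not reach the threshold, with a median log2 fold change of -0.18 against 0.003 over all tested genes. Falls numbered 7, 5 and 5 without mimic library 1, 2 or 3, in that order. They numbered 6, 6 and 5 without scramble library 1, 2 or 3. TOMM20, a receptor of the outer membrane, was at 26.3, 25.6 and 25.1 FPKM with mimic and 42.2, 42.4 and 41.8 with scramble (log2 fold change -0.69, adjusted p = 1.7e-05). TIMM10B, a subunit of the TIM22 complex, was at 8.67, 8.89 and 8.73 FPKM with mimic and 15.1, 14.5 and 14.4 with scramble (log2 fold change -0.68, adjusted p = 3.0e-05). The libraries of each group lay close together, with a wide gap between groups. TOMM70, the receptor for carrier precursors, fell by 0.22, TOMM22 by 0.28 and the small chaperone gene TIMM8A by 0.23 on the log2 scale. TIMM8B rose by 0.25 (adjusted p = 0.0402), a call lost without mimic library 1 or 3 or scramble library 1 or 2, with adjusted p up to 0.117.

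Genes that work next to ADP/ATP exchange were read in the same way. The list held outer-membrane channels, kinases and PPIF, the matrix cyclophilin. Of its 8 tested genes 3 fell (37.5%, against 16.8% of all tested genes) and 5 did not pass, with a median of -0.089. HK2, a hexokinase that binds the outer membrane and uses exported ATP, was at 8.55, 9.49 and 9.53 FPKM with mimic and 15.5, 16.2 and 14.04 with scramble (log2 fold change -0.67, adjusted p = 0.00024). The channel gene VDAC2 fell by 0.27 and AK3, a matrix kinase, by 0.24. Of 18 nuclear genes of the ATP synthase, which makes the ATP that the carriers export, 2 fell (11.1%, against 35.5% of all tested genes called and 16.8% lower) and 16 did not pass, with a median of -0.10. ATP5F1B, the catalytic beta subunit, was at 301.0, 299.5 and 297.5 FPKM with mimic and 516.5, 515.2 and 536.0 with scramble (log2 fold change -0.80, adjusted p = 1.6e-05), and ATP5MC1 fell by 0.21. The groups of HK2 and of ATP5F1B did not overlap.

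Transporters of the inner membrane from other families were compared next. Of 18 tested genes 2 rose, 2 fell and 14 did not pass, so that 22.2% were called against 35.5% of all tested genes, with a median of 0.063. MCUB, a subunit of the calcium uniporter, rose by 0.26 and MPC2, of the pyruvate carrier, by 0.23 on the log2 scale. LETM1, a cation exchanger, had a log2 fold change of -0.39 (adjusted p = 0.00075). SFXN4 fell by 0.17 (adjusted p = 0.0477), and this call was lost without any 1 of the 3 mimic libraries or scramble library 1 or 3, with adjusted p up to 0.124. Among 11 tested regulators of mitochondrial gene expression, NRF1 and the coactivator gene PPRC1 each fell by 0.29, YY1 rose by 0.20 and 8 did not pass. Thus 27.3% were called, against 35.5% of all tested genes, with a median of -0.009.

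**Figure D5:**
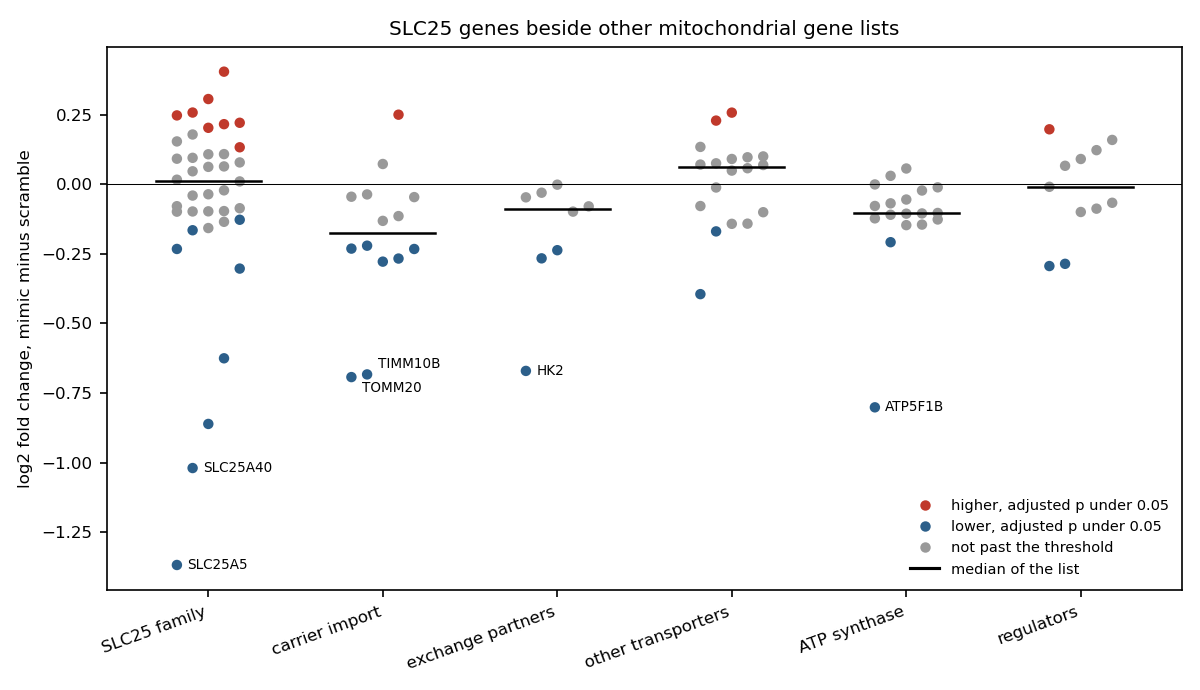
log2 fold change of each tested gene of the SLC25 family and of 5 other mitochondrial gene lists, with the median of each list as a line. The medians lie between -0.18 (carrier import) and 0.063 (other transporters), and single genes such as SLC25A5 and ATP5F1B lie far below their lists.

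Libraries were similar in depth, at 48.0 to 62.7 M counted reads (whether mates of a pair were counted separately is not known), and correlated across genes at 0.994 to 0.996 within groups and 0.985 to 0.988 between them. The labelled cell type was not matched by its markers. Of 10 pluripotency and embryonal carcinoma markers, 1 (DNMT3B) lay above 1 FPKM in all libraries, and NANOG, SOX2, TDGF1, SALL4 and L1TD1 were listed at 0 in all. Their summed level was 5.34 to 5.52 FPKM with mimic and 3.14 to 3.71 with scramble. Of 10 endothelial markers 8 lay above 1 FPKM in all libraries, while KDR did not exceed 0.040 FPKM and VWF 0.525 FPKM. The summed level of the 10 was 569 to 622 FPKM with mimic and 460 to 494 with scramble. EGFL7 alone gave 231 to 336 FPKM over the 6 libraries. Of the 8 tested endothelial markers 7 rose (87.5%, against 18.7% of all tested genes). Fibroblast markers (1 of 8 above 1 FPKM) summed to 6.57 to 7.09 FPKM with mimic and 4.68 to 5.01 with scramble, and epithelial markers (2 of 6, with CDH1 at 0) to 303 to 319 and 294 to 324. Blood markers (0 of 6) summed to at most 0.323 FPKM, with CD3E listed at 0. The part of these marker differences in the carrier results was not tested.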

How the data were processed

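RNA of 3 mimic and 3 scramble libraries was sequenced. The build was GRCh38, and Trimmomatic 0.39, DESeq2 1.26.0, featureCounts 2.0.1 and HISAT2 2.1.0 were used, per the submitters' processing notes. For the annotation and the counting options, the sources used here give nothing. FPKM values of 58051 genes were deposited by the authors. A second table by the authors, with 401 genes, gives, per the file headers, a mean of normalized counts (a signal), a log2 fold change with its standard error, a test statistic (a score) and p-values. Its fold change has the sign of mimic minus scramble in all 401 genes, and its score the opposite sign.

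GENCODE release 29 (GRCh38) gave symbols and positions for 57447 identifiers, and promoter windows from RefSeq (GRCh38.p14). FPKM times exon length gave whole reads, within 0.02 reads, for 96.2% to 96.5% of values up to 20 reads, and so the depths. At this depth a called member rested on at least 322 counted reads, which may be mates or fragments, in each library. FPKM are not counts, so log2(FPKM + 1) was fitted with limma's variance-trend model (limma 3.58.1 under R 4.3.3). Genes averaging 0.5 FPKM or more entered, 12912 in all, with Benjamini-Hochberg adjustment at 0.05 over all of them. The model was tested on simulated data. Reads recovered from FPKM were also fitted with voom as an alternative. The depth of each library and the number of libraries limit the precision.

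The members past the threshold, except 1 that is counted but not reported here, the ADP/ATP carriers and the 10 most abundant members were named with values. From the other lists, called genes changed by at least 0.5 on the log2 scale and up to 4 more with the smallest p were named, with DBF4 added after its values were seen. Members and lists were chosen with earlier results of these data known. Alternatives covered the pseudocount, filter, scaling, variance model, replicate number and single libraries.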

Additional observations from a re-analysis of the deposited data

How the results depend on the processing

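The 18 alternatives changed the pseudocount (0.1, 0.5), the filter (none, a mean of 1 or 5 FPKM), the scaling (TPM, median ratio, quantile), the variance model, the kind of value (voom on recovered reads) and the libraries, and took the replicate number as a block. SLC25A5 stayed past the threshold in all of them, at -1.38 to -1.33 and, without 1 library each, at -1.39 to -1.33. Its difference to SLC25A6 was recomputed with the other pseudocounts, on the TPM scale and with the block, at -1.21 to -1.20, and without 1 library each, at -1.22 to -1.19. Of the 16 called members, 10 kept the call under every alternative that tested them, 6 lost it under some, and 0 changed direction. The number of members that rose, 8, was 4 with no filter on low values, where 30416 genes were tested, and 4 to 9 over the alternatives. Without 1 library each it was 5 to 7, and it was 5 without mimic library 1, 2 or 3 or scramble library 2. The number that fell, 8, was 6 to 8 in both kinds of alternative. Of all genes, 4584 were called, 3290 to 5037 under the alternatives and 3374 to 4006 without 1 library each. The largest shift of the median of all genes was to 0.024, on the TPM scale.

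With the replicate number as a block, 4609 genes were called, 9 members rose and 7 fell, and SLC25A5 was at -1.37. SLC25A13 and SLC25A32 lost their calls there and SLC25A39 and SLC25A36 gained one. Deviations of same-numbered libraries correlated at -0.062, 0.241 and 0.054. Mimic libraries 2 and 3 correlated best with the scramble library of their own number, but mimic library 1 did so with scramble library 3 (0.230). The match was thus not complete, and the numbers were not taken to pair the libraries. Genes below about 0.5 FPKM, 9 of the 48 members, were left out of the model.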
